A study of Mus musculus with 4 samples.

Results

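Matrix proteases cut the proteins of the extracellular matrix and of the cell surface, and their inhibitors hold them in check. The group described here was chosen by name as 38 mouse genes, of which 35 had at least 1 probe set annotated with exactly that symbol, of 18193 genes so annotated on the array. For each gene the probe set with the highest mean over the 4 arrays was read, and 33 of the 35 passed the filter on low signal, while Mmp10 and Mmp13 did not. Mmp15, Adamts2 and Serpine2 were not analysed here. Affymetrix 1-colour arrays were hybridised with RNA of mouse embryonic fibroblasts at passage 3, which are primary connective tissue cells, taken from embryos and not immortalised. The RBP2-/- group was 2 lines that lack RBP2, the retinoblastoma binding protein and histone demethylase encoded by Kdm5a, and the WT group was 2 wild-type lines, with 1 array per line. Lines of each genotype carry the numbers 1 and 2 in their titles, and the labels do not tie a number to a litter, day or batch. The members were therefore compared by genotype and by line number. Each p-value rests on 4 lines, with the spread of each gene drawn toward that of probe sets of like signal.

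Matrix metalloproteinases (MMPs) are zinc enzymes made as inactive precursors, either secreted or held in the cell membrane, and tissue inhibitors of metalloproteinases (TIMPs) block their active site. The ADAM family sheds proteins from the cell surface, and the secreted ADAMTS family cuts proteoglycans and procollagens. Serine proteases of the plasminogen activator and HtrA families, cysteine proteases called cathepsins, and the astacin protease Bmp1, which removes the C-terminal propeptide of procollagen, complete the set. Fibroblasts are a main source of these enzymes in connective tissue, and several MMP genes are known for induction through the AP-1 transcription factor.

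Of the 35 genes, 21 matched a promoter window in RefSeq (GRCm38.p6), here the 250 bases before an annotated start, with 24 windows in all. Mmp13, Mmp3 and Mmp10 lie in 1 cluster on chromosome 9, with Mmp12 and Mmp1b between Mmp13 and Mmp3 and with Mmp1a between Mmp3 and Mmp10. Their windows are shown because they share an arrangement that no other member with a window had, and that of Timp2 is shown as a window rich in CpG. The 14 members without a window were not searched. Capitals mark the AP-1 motif TGACTCA or its reverse complement TGAGTCA, and the motif TATAAA, both searched on both strands and not overlapping in these windows.
Mmp13, chr9:7272264-7272513, plus strand: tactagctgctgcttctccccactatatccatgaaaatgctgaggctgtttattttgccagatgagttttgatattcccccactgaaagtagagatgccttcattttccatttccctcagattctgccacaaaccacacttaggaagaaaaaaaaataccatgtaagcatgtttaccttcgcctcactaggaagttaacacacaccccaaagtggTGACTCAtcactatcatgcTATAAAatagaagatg
Mmp3, chr9:7445572-7445821, plus strand: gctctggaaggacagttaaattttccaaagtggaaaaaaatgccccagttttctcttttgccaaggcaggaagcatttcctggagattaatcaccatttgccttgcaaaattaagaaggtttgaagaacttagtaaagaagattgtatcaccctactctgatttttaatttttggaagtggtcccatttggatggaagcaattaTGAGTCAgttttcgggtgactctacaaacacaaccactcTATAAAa
Mmp10, chr9:7502092-7502341, plus strand: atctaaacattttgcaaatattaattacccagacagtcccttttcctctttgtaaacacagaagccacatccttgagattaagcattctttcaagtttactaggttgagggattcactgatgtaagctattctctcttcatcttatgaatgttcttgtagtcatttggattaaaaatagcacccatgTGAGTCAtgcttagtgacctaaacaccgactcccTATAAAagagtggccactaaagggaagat
Timp2, chr11:118355412-118355661, minus strand: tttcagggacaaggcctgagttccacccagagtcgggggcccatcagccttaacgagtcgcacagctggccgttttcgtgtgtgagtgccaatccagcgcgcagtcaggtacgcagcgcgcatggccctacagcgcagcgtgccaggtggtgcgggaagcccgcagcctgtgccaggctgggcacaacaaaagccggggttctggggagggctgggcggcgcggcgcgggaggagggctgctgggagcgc
The AP-1 motif began 35, 46 and 63 bases before the annotated start of Mmp13, Mmp3 and Mmp10, and TATAAA began 16, 7 and 29 bases before it. Of the 24 member windows, 4 held the AP-1 motif, those of the cluster genes and 1 of 3 for Adam19, against 4.46% of the 32851 windows of all genes. TATAAA was found in 4 member windows, those of the cluster genes and of Adamts1, against 12.4% of all windows. Both motifs together were in 0.721% of all windows. The cluster windows each held 1 CpG dinucleotide, where the window of Timp2 held 21 and the median over all windows was 6. Adam10, Adam17, Adamts9 and Htra1 had windows with 29, 23, 22 and 22. These are matches of letters only, and no binding was measured.

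The deposited signal was not at a common level. Its trimmed mean was 77.9 and 151.6 on the RBP2-/- arrays of lines 1 and 2, and 61.7 and 100.7 on the WT arrays of lines 1 and 2, so the arrays of lines numbered 2 were the brighter ones in both genotypes. Arrays were quantile normalized, which gives every array the same distribution of signal, and differences are on the scale log2(normalized signal + 9). After this step WT line 1 stood apart, with a correlation of 0.927 to 0.929 with the other arrays, which correlated with each other at 0.948 to 0.965. Kdm5a itself had a normalized signal of 75.5 and 80.7 in RBP2-/- lines and 96.5 and 191 in WT lines on its brightest probe set. The difference was -0.74, with a standard error (SE) of 0.34, and did not pass the threshold. Of its 5 kept probe sets none passed. A dimmer one had 14.0 and 28.1 in RBP2-/- lines, against 48.2 and 74.7 in WT lines, a difference of -1.24, and the other 3 overlapped, with -0.25, 0.15 and 0.24. The sources used here do not say which part of the gene is deleted. The fibroblast genes Col1a1, Col1a2 and Vim were far above the pseudocount on every array, with normalized signals of at least 6182.

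**Figure D1:**
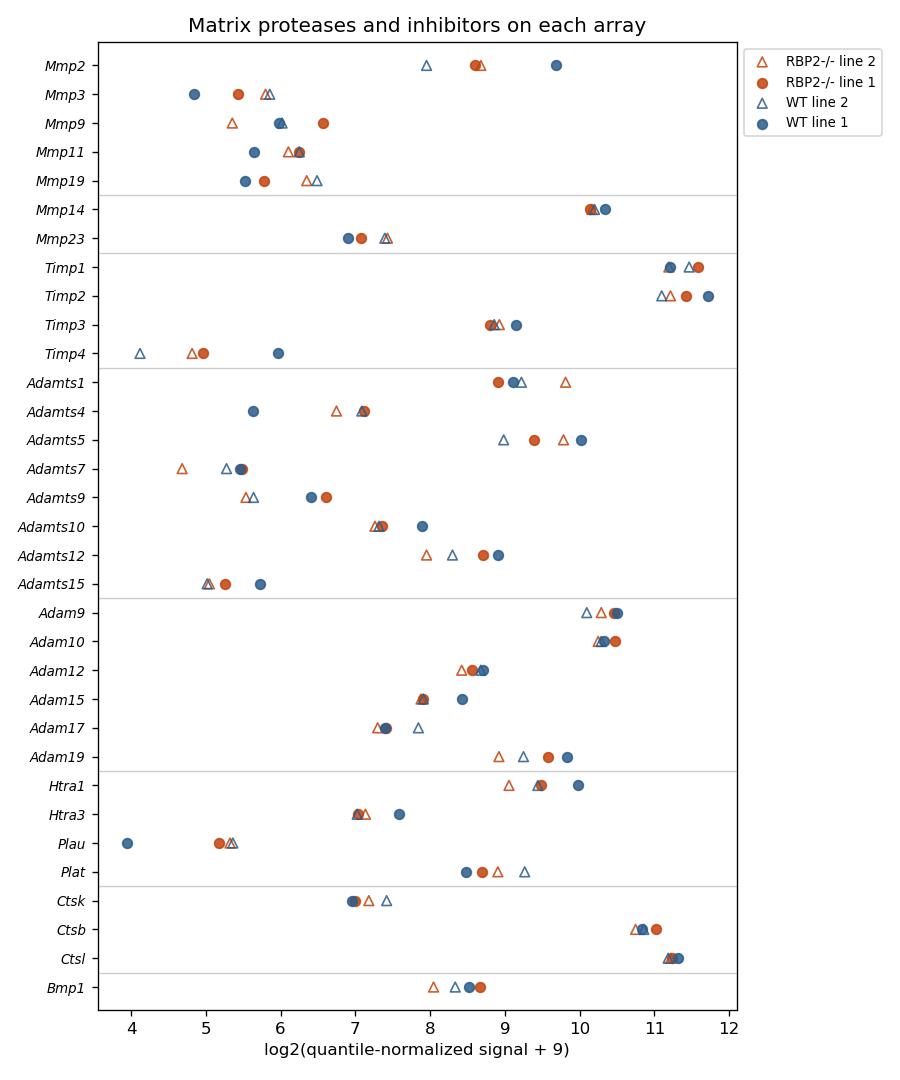
Signal of the 33 members that passed the filter, as log2(quantile-normalized signal + 9), on each of the 4 arrays, grouped by role from MMPs at the top to Bmp1 at the bottom. Triangles are lines numbered 2 and circles lines numbered 1, and for 20 members the triangles lie wholly to one side of the circles, while the RBP2-/- symbols lie wholly to one side of the WT symbols for 3.

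By genotype, 0 of the 33 members passed an adjusted p of 0.05 in limma, and 0 had an unadjusted p under 0.05. Over all 27022 probe sets kept, 1, or 0.0037%, passed and 2.98% had such an unadjusted p, 1.56% with RBP2-/- higher and 1.42% with RBP2-/- lower. A difference of at least 1 in size was found for 0 members, against 2.34% of all probe sets. The smallest adjusted p among members was 0.9998. The members with such an unadjusted p were 1 without WT replicate 1, 5 without WT replicate 2, 2 without RBP2-/- replicate 1 and 0 without RBP2-/- replicate 2. All probe sets then had 2.83%, 11.9%, 2.09% and 3.02%, and the count of 5 set RBP2-/- against WT line 1 alone. Of the estimates, 13 lay above 0 and 20 below it, and the median log2 difference was -0.08, where all probe sets had 50.4% above 0 and a median of 0.0031. The members' median was -0.0036 without WT replicate 1, -0.16 without WT replicate 2, -0.14 without RBP2-/- replicate 1 and -0.072 without RBP2-/- replicate 2. It was -0.0062 relative to the shift of all probe sets with median-centred arrays or without scaling. The median size of a difference, regardless of sign, was 0.15 for the members and 0.21 for all probe sets. The 95% interval lay within a 2-fold difference either way for 23 of the 33 members, so larger differences than that were outside the interval for those genes, and the other 10 were measured too loosely for such a bound. With arrays only centred on their medians 27 estimates were above 0, and without scaling 32 were, but all probe sets then shifted by 0.18 and 0.38 and 16 members lay above that shift in both settings.

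The RBP2-/- arrays lay wholly to one side of the WT arrays for 3 members, or 9.09%, all of them lower in RBP2-/-, where 29.5% of all probe sets had arrays apart and 14.9% had RBP2-/- lower. These 3 were Mmp14, Adam12 and Adam15. Mmp14, the membrane MMP that activates the precursor of Mmp2, had a normalized signal of 1122 and 1139 in RBP2-/- lines, against 1286 and 1167 in WT lines. Its difference was -0.12 (SE 0.18), and it was 0.0089 relative to the shift of all probe sets with median-centred arrays or without scaling. On a dimmer Mmp14 probe set the separation ran the other way, with 683 and 677 in RBP2-/- lines, against 642 and 666 in WT lines. Adam12, an ADAM known from muscle and fat development, had 368 and 334 in RBP2-/- lines and 410 and 401 in WT lines. Adam15, an ADAM with a disintegrin domain that binds integrins, had 231 and 226 in RBP2-/- lines, against 336 and 232 in WT lines. That separation was small for WT line 2, and the Adam15 probe set read here is of a kind that can bind several transcripts.

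The largest genotype estimates were those of Plau and Adamts4, and both turned negative when WT line 1 was left out. Plau, the urokinase-type plasminogen activator, had a normalized signal of 27.3 and 31.1 in RBP2-/- lines, against 6.38 and 32.1 in WT lines. Its difference was 0.60 (SE 0.54), and it was -0.11 without WT replicate 1, whose signal was below the pseudocount. Adamts4, an aggrecan-cutting protease, had 129 and 98.5 in RBP2-/- lines, against 40.4 and 127 in WT lines. Its difference was 0.57 (SE 0.45), or -0.16 without WT replicate 1. For both genes WT line 2 was close to the RBP2-/- lines.

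On the lower side, Htra1, a secreted serine protease that cuts fibronectin, had a normalized signal of 705 and 523 in RBP2-/- lines, against 1002 and 686 in WT lines. Its difference was -0.44 (SE 0.25), and its 95% interval ran from -1.02 to 0.13. Adamts10, which acts on fibrillin microfibrils, had 156 and 145 in RBP2-/- lines and 229 and 150 in WT lines, a difference of -0.29 that was -0.0036 without WT replicate 1. Adamts7, which like Adamts12 cuts cartilage oligomeric matrix protein, had 35.6 and 16.7 in RBP2-/- lines, against 35.0 and 29.8 in WT lines. Adam17, the sheddase of tumour necrosis factor and of growth factor precursors, had 160 and 148 in RBP2-/- lines and 160 and 221 in WT lines. Its difference was -0.27 (SE 0.26). The genotype estimates of Adam19 and Adamts12 were -0.29 (SE 0.28) and -0.27 (SE 0.32), and that of Mmp3 was 0.27 (SE 0.43), all with overlapping groups. Across the group, 27 of the 33 members changed the sign of the genotype difference when at least 1 array was left out. Adam12, Adam15, Adam17, Adamts10, Htra1 and Mmp14 did not, and all of these 6 were below 0. Without WT replicate 1, Adam15 was at -0.016 and Adamts10 at -0.0036. Dimmer kept probe sets of Mmp14 and Adam15 reached 0.06 and 1.34, while those of Adam12, Adam17, Adamts10 and Htra1 were below 0. The share of all probe sets that changed sign was not counted.

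Of the 4 inhibitors, 1 had a genotype estimate above 0 and 3 below. Timp1, which also acts as a growth factor, had a normalized signal of 3054 and 2333 in RBP2-/- lines, against 2365 and 2819 in WT lines. Its genotype difference was 0.05 with a 95% interval from -0.40 to 0.49. Timp2, which blocks Mmp2 and also takes part in its activation with Mmp14, had 2740 and 2369 in RBP2-/- lines, against 3353 and 2183 in WT lines, and a difference of -0.09 with an interval from -0.60 to 0.43. Timp3, the TIMP that binds to the matrix and inhibits several ADAM and ADAMTS enzymes, had 439 and 478 in RBP2-/- lines and 560 and 455 in WT lines, with a difference of -0.14 and an interval from -0.63 to 0.35. The groups overlapped for each of these 3 inhibitors. Timp4 was near the pseudocount, with 22.1 and 19.2 in RBP2-/- lines and 53.5 and 8.40 in WT lines, and its interval reached from -1.55 to 1.24. Among the cathepsins, lysosomal proteases that fibroblasts also secrete, the genotype differences were 0.04 for Ctsb, -0.02 for Ctsl and -0.10 for Ctsk, with standard errors of 0.18, 0.16 and 0.28. For Bmp1 it was -0.07 (SE 0.26).

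**Figure D2:**
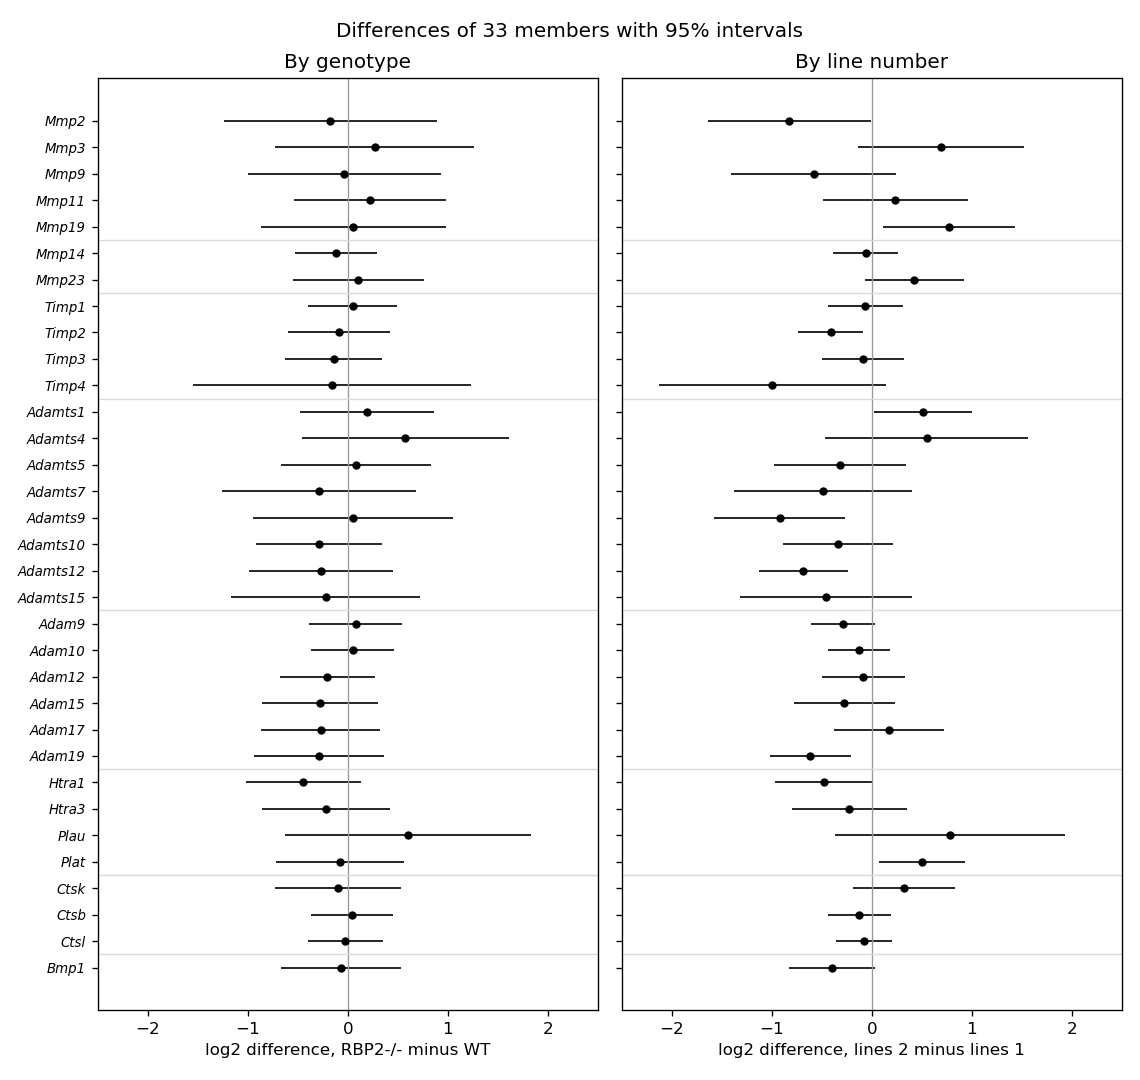
Log2 difference of each of the 33 members with its 95% interval from limma, RBP2-/- minus WT on the left and lines numbered 2 minus lines numbered 1 on the right, on the same scale. The intervals of the left panel all include 0, and on the right 8 do not, with Adamts9 at -0.92 and Mmp19 at 0.77 among them.

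By line number, 0 of the 33 members passed the same adjusted threshold in limma, against 1 of 27022 probe sets or 0.0037%. At an unadjusted p under 0.05 there were 8 members, or 24.2%, where 9.4% of all probe sets had such a p. That excess over the background depended on the processing. Without the mean-dependent variance 3 members, or 9.1%, had such a p, against 7.6% of all probe sets. With median-centred arrays there were 5, or 15.2%, against 9.81%, and without scaling 9, or 27.3%, against 26.8%. Other settings changed the pseudocount or filter, left out probe sets that can bind several transcripts, or added the genotype. The shares were then 21.2% to 28.6% of members, against 8.05% to 11.5% of all probe sets. Of the 8 members, 3 were higher in lines numbered 2 (5.13% of all probe sets) and 5 were lower (4.28%). The smallest adjusted p was 0.326, that of Adamts12. Arrays of the line numbers lay apart for 20 members, or 60.6%, against 41% of all probe sets. Lines 2 were above lines 1 for 7 of them, where the background was 20.2%, and below for 13, where it was 20.7%. The median size of a difference was 0.41 for the members and 0.25 for all probe sets. For 27 of the 33 members the difference by line number was larger in size than that by genotype. That share was not counted over all probe sets, whose median size was also larger by line number, with 0.25 against 0.21 by genotype. A difference of at least 1 in size was again found for 0 members, against 3.25% of all probe sets. The median level of the members was 7.95 in both RBP2-/- and WT lines 2, against 8.56 and 8.49 in RBP2-/- and WT lines 1, on the log2 scale. This level is that of the middle gene, which was not the same gene on each array. The median of the members' own differences by line number was only -0.13. The count of 8 became 7 without WT replicate 1, 4 without WT replicate 2, 16 without RBP2-/- replicate 1 and 4 without RBP2-/- replicate 2. The percentages of all probe sets were then 13.4%, 4.88%, 22.7% and 3.41%. Each of these fits leaves an arm of 1 array, which is assumed to vary like the other arm. Without RBP2-/- replicate 1 the lines numbered 1 are WT line 1 alone, the array that stood apart. In that fit Mmp2, Timp2 and Adamts4 had limma adjusted p-values of 0.0213, 0.0489 and 0.0276, which rest on that single array.

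By line number 10 member estimates lay above 0 and 23 below it, against 50% of all probe sets above 0, and their median was -0.13. Without scaling, 31 were above 0, and all probe sets shifted by 0.73. With median-centred arrays 19 were above 0, at a shift of 0.19. Relative to those shifts, 13 members were above and the median was -0.11 in both settings.

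Of the 5 secreted MMPs that passed the filter, 3 had line number estimates above 0 and 2 below. Mmp19, an MMP that cuts basement membrane proteins, had a normalized signal of 72.6 and 80.8 in RBP2-/- and WT lines 2, against 45.8 and 37.0 in RBP2-/- and WT lines 1. Its difference was 0.77 (SE 0.29), or 1.70-fold, with an unadjusted p of 0.0278 and a limma adjusted p of 0.462. Mmp3, or stromelysin 1, had 46.7 and 48.9 in RBP2-/- and WT lines 2, against 34.2 and 19.6 in RBP2-/- and WT lines 1. Its difference of 0.69 (SE 0.36) had a limma adjusted p of 0.607. In both genes line 2 was above line 1 within each genotype.

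The cluster neighbours of Mmp3, with the same motifs before their start, were too dim for the test and are given as values. Mmp13, the mouse interstitial collagenase, had 28.9 and 19.4 in RBP2-/- and WT lines 2, against 2.75 and 5.05 in RBP2-/- and WT lines 1, and both lines 1 were below the pseudocount of 9. Lines 2 were above lines 1 in both genotypes, as for Mmp3. Mmp10, or stromelysin 2, had 8.55 and 28.0 in RBP2-/- and WT lines 2 and 29.9 and 5.42 in RBP2-/- and WT lines 1, so its line numbers overlapped and its direction was opposite in the 2 genotypes.

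The gelatinases Mmp2 and Mmp9 had line number estimates below 0, each with overlapping arrays. Mmp2, which cuts denatured collagen and basement membrane collagen, had 401 and 239 in RBP2-/- and WT lines 2, against 380 and 811 in RBP2-/- and WT lines 1. The difference was -0.83 (SE 0.36). It was 0.08 between the RBP2-/- lines and -1.73 between the WT lines, and without WT replicate 1 it was -0.29. A dimmer Mmp2 probe set had a line number difference of -0.05. With the genotype added to the fit, Mmp2 passed the threshold with a limma adjusted p of 0.0313 on its brightest probe set. Mmp9 had 31.9 and 55.9 in RBP2-/- and WT lines 2, against 85.8 and 53.8 in RBP2-/- and WT lines 1, a difference of -0.58 that was -1.21 between the RBP2-/- lines and 0.05 between the WT lines. Mmp11, or stromelysin 3, had 59.9 and 67.2 in RBP2-/- and WT lines 2, against 66.7 and 41.1 in RBP2-/- and WT lines 1, and its arrays overlapped. The Mmp14 arrays overlapped too, and the membrane MMPs had differences of 0.42 for Mmp23 and -0.06 for Mmp14. Other kept probe sets turned both signs, with -0.22 for Mmp23 and with 0.02 and 0.44 for Mmp14.

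**Figure D3:**
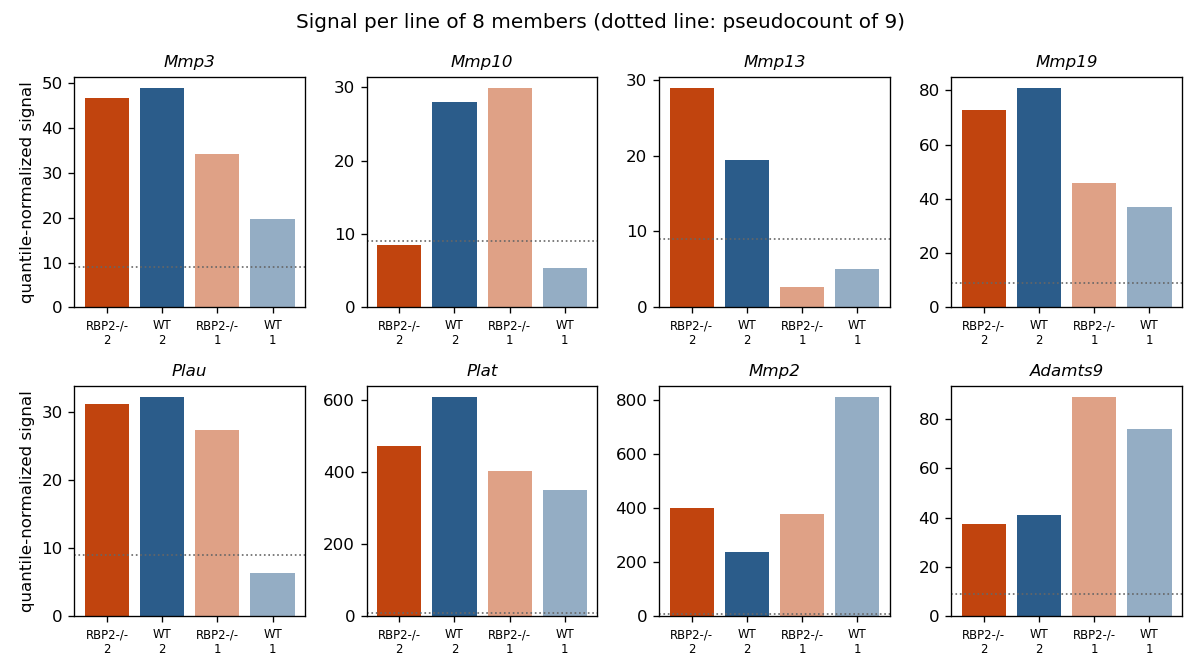
Quantile-normalized signal of 8 members on each array, with bars from 0 for RBP2-/- line 2, WT line 2, RBP2-/- line 1 and WT line 1, and the pseudocount of 9 as a dotted line. Lines numbered 2 are above lines numbered 1 for Mmp3, Mmp13, Mmp19, Plau and Plat and below them for Adamts9, while Mmp10 and Mmp2 overlap.

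Both plasminogen activators, which turn plasminogen into plasmin, had line number estimates above 0 and arrays that did not overlap. Plat, the tissue-type activator, had a normalized signal of 471 and 607 in RBP2-/- and WT lines 2, against 404 and 350 in RBP2-/- and WT lines 1. Its difference was 0.50 (SE 0.19), or 1.41-fold, with an unadjusted p of 0.028 and a limma adjusted p of 0.464. Plau had a difference of 0.78 (SE 0.50), which was 0.17 without WT replicate 1. Htra1 ran the other way, with a line number difference of -0.48 and a standard error of 0.21, and its arrays did not overlap. A second Htra1 probe set had 0.02. Its relative Htra3 had -0.22 by genotype and -0.22 by line number (SE 0.28 and 0.25), with overlapping arrays in both.

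Of the 8 ADAMTS genes that passed the filter, 2 had estimates above 0 by line number and 6 below, with a median of -0.40. Adamts12 had 239 and 306 in RBP2-/- and WT lines 2, against 411 and 471 in RBP2-/- and WT lines 1. Its difference was -0.68 (SE 0.19), its 95% interval ran from -1.13 to -0.24 and its unadjusted p was 0.00727. Adamts9, a protease of versican and aggrecan, had 37.5 and 40.9 in RBP2-/- and WT lines 2, against 88.8 and 75.8 in RBP2-/- and WT lines 1. That was a difference of -0.92 (SE 0.29) with a limma adjusted p of 0.377, and another kept Adamts9 probe set had -0.72. Adamts1, a versican-cutting enzyme, went the other way, with 890 and 588 in RBP2-/- and WT lines 2, against 470 and 546 in RBP2-/- and WT lines 1. The arrays of lines 2 were on one side of those of lines 1 for each of these 3 genes. Adamts15 had -0.46 (SE 0.38), with a low signal of 23.4 to 44.1 over the 4 arrays. Adamts5, the other main aggrecanase, overlapped, with 873 and 498 in RBP2-/- and WT lines 2 and 661 and 1033 in RBP2-/- and WT lines 1.

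Of the 6 ADAM genes, 1 was above 0 and 5 were below by line number. Adam19, a sheddase of neuregulins with roles in heart development, had 476 and 600 in RBP2-/- and WT lines 2, against 753 and 898 in RBP2-/- and WT lines 1. Its difference was -0.61 (SE 0.18), or 0.654 times the signal of lines 1, with an unadjusted p of 0.00829 and a limma adjusted p of 0.343. Adam9, Adam10 and Adam15 had -0.29, -0.13 and -0.27. All 4 TIMPs were below 0 by line number, and Timp2 with -0.41 had a standard error of 0.14 and an unadjusted p of 0.0187. Timp1 and Timp3 had -0.07 and -0.09, and Timp3 was 0.028 relative to the shift of all probe sets with median-centred arrays or without scaling. Bmp1 had -0.40 (SE 0.19), and Ctsk, Ctsb and Ctsl had 0.32, -0.12 and -0.07.

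The line difference was also read within each genotype. It had the same sign in both for 22 of 33 members, or 66.7%, against 55.5% of all probe sets, and of these 7 were higher and 15 lower in lines 2. Its median size was 0.22 between the RBP2-/- lines and 0.54 between the WT lines, where all probe sets had 0.30 and 0.34, and it was larger between the WT lines for 22 members. With 1 array in each of these cells the difference between genotypes could not be tested. It also cannot be told apart from the X and Y split of the lines given at the end. There high Xist, the RNA of the inactive X chromosome, marks line 2 in RBP2-/- and line 1 in WT. WT line 1, the array that stood apart, had the highest signal of the 4 arrays for 16 members and the lowest for 8. The shares of all probe sets were not counted for this, nor for the larger difference between the WT lines. Timp4, with -0.14 between RBP2-/- lines and -1.84 between WT lines, Adamts4, with -0.37 and 1.46, and Plau, with 0.14 and 1.42, had wider gaps between the WT lines. Adamts9, Adamts12 and Adam19 had like values in both genotypes, with -1.07 and -0.77, -0.76 and -0.61, and -0.65 and -0.58 in RBP2-/- and WT lines.

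**Figure D4:**
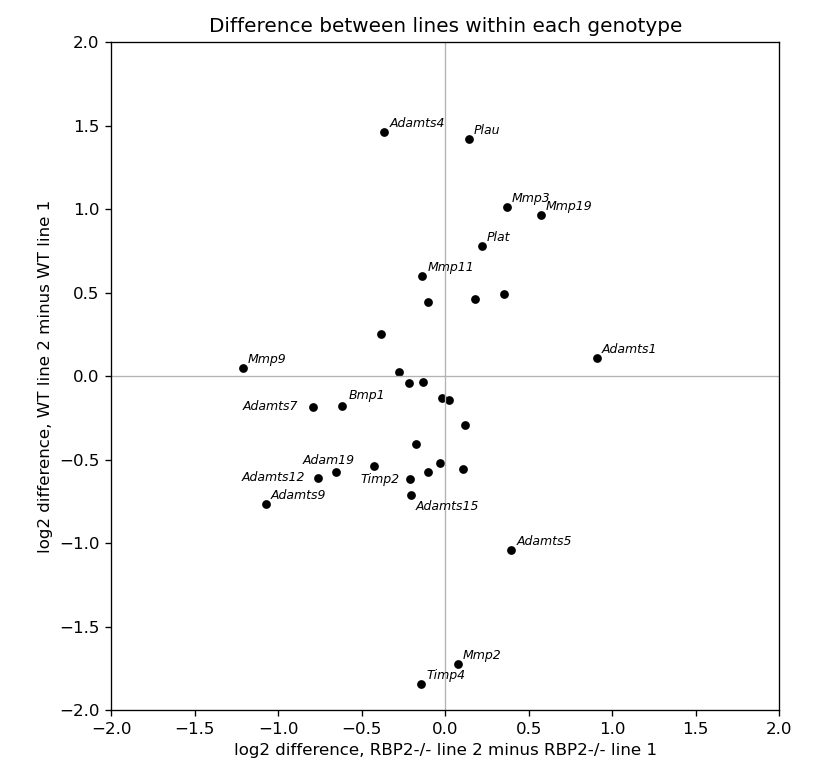
Log2 difference between line 2 and line 1 within RBP2-/- (horizontal axis) and within WT (vertical axis) for the 33 members, named where either difference is over 0.6 in size. Adamts9, Adamts12 and Adam19 lie in the lower left and Mmp3, Mmp19 and Plat in the upper right, while Mmp2 and Timp4 differ mainly along the WT axis.

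Probe sets of 1 gene did not always run the same way. For 17 members more than 1 probe set was kept, and these lay on both sides of 0 for 8 members by genotype and for 9 by line number. For 3 members a dimmer probe set had an unadjusted genotype p under 0.05 although the brightest did not: Mmp2, Adam15 and Adam17. These are 3 of the 65 kept member probe sets, or 4.62%, where 2.98% of all probe sets had such a p. That of Mmp2 had a normalized signal of 272 and 332 in RBP2-/- lines, against 531 and 405 in WT lines, a difference of -0.61 (SE 0.24, limma adjusted p 0.9998), where the brightest had -0.18. The RBP2-/- lines lay below the WT lines on that probe set and overlapped on the brightest. A dimmer probe set of Adam17 had -0.67 by genotype, where the brightest had -0.27, and one of Plat had -0.82, where the brightest had -0.08. Timp2 had 5 kept probe sets, with genotype differences from -0.31 to 0.16 and line number differences from -0.43 to 0.20. Timp3 had 4, with genotype differences from -0.14 to 0.30. For Adam15 a dimmer probe set had a genotype difference of 1.34, against -0.28 on the brightest, with a normalized signal of 95.9 and 70.9 in RBP2-/- lines and 9.10 and 63.1 in WT lines. The 3 kept probe sets of Adamts5 ran alike, with genotype differences from 0.08 to 0.16.

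**Figure D5:**
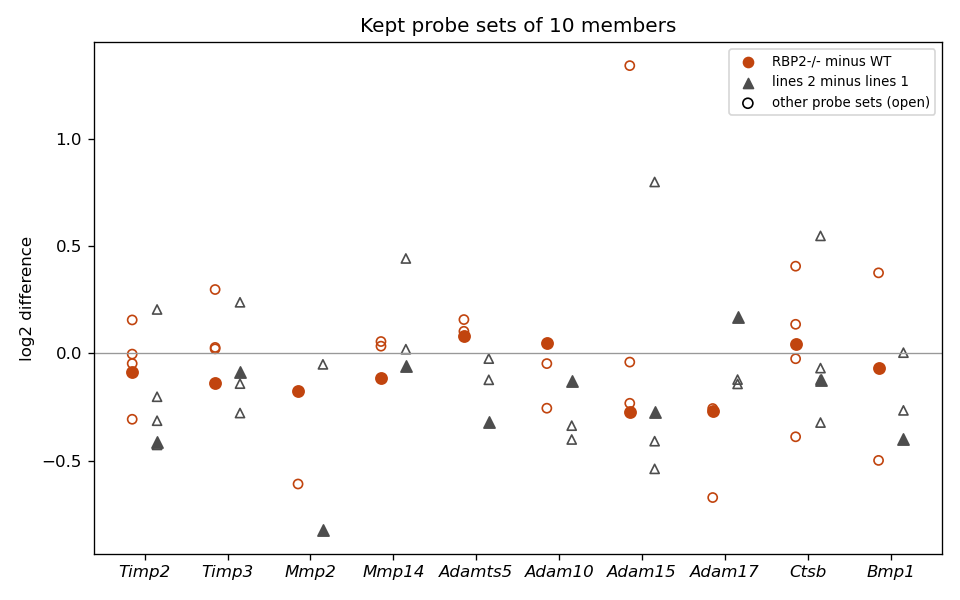
Log2 differences of the kept probe sets of 10 members by genotype (circles) and by line number (triangles), filled for the probe set with the highest mean signal and open for the others. Points of Timp2, Timp3, Mmp14, Adam15, Ctsb and Bmp1 fall on both sides of 0 in both comparisons.

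Other genes of the same systems, 78 in all, had 70 with a named probe set and 49 that passed the filter. By genotype 0 of the 49 passed the adjusted threshold in limma, 3 were higher and 1 lower at an unadjusted p under 0.05, and the median was -0.01. These are 8.16% of the 49, against 2.98% of all probe sets. Slpi, a secreted inhibitor of leukocyte elastase, had 59.7 and 61.3 in RBP2-/- lines, against 21.7 and 28.3 in WT lines. Ctsf, a lysosomal cysteine protease, had 4.78 and 10.7 in RBP2-/- lines, against 39.7 and 32.3 in WT lines. Their log2 differences were 1.04 and -1.45, and the lysosomal enzymes Ctsa and Ctsd had 0.60 and 0.45. For Ctsf the RBP2-/- signals were below or near the pseudocount of 9, and its probe set is of a kind that can bind several transcripts. By line number 0 of the 49 passed, 4 were higher and 2 lower at an unadjusted p under 0.05, or 12.2% against 9.4% of all probe sets, and the median was -0.001. Tfpi, an inhibitor of the tissue factor pathway of coagulation, had -0.86, and Ctsh had -1.16. Pcolce, which enhances Bmp1, and Reck, a membrane-anchored MMP inhibitor, had 0.49 and 0.61.

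Lists of fibroblast and of smooth muscle genes had line number medians of 0.43 and -0.60. In bulk RNA, fewer cells of a type and less RNA per cell cannot be told apart. Of 6 smooth muscle genes, 5 were below 0 by line number, and their summed normalized signal was 14294 and 14524 in RBP2-/- and WT lines 2, against 18476 and 18541 in RBP2-/- and WT lines 1. Of 13 fibroblast markers, 11 were above 0, with sums of 42950 and 44372 in RBP2-/- and WT lines 2, against 39781 and 39119 in RBP2-/- and WT lines 1. Pdgfra, a receptor for platelet-derived growth factor, had a difference of 2.29. Macrophage and leukocyte markers, of which 8 of 12 measured passed the filter, were below 0 by genotype for all 8. Of these 8 markers, 0 had an unadjusted p under 0.05 in limma. The RBP2-/- arrays lay wholly below the WT arrays for 2, against 14.9% of all probe sets. Sums over all 12 measured markers, including those that did not pass, were 404.6 and 421.9 in RBP2-/- lines, against 639.6 and 489 in WT lines 1 and 2. The highest was that of WT line 1, the array that stood apart. Ptprc, Itgam, Cd68 and Aif1 did not pass the filter. Osteoclast markers, for the cells that make much Ctsk and Mmp9, passed for 3 of 7. All 7 together summed to 131.3 and 145.4 in RBP2-/- lines, against 183 and 103 in WT lines. The part of these markers in the members' values was not tested. Endothelial, epithelial, and chondrocyte and osteoblast markers passed for 5 of 8, 7 of 8 and 5 of 6 with a probe set, with medians of 0.16, -0.29 and -0.18 by genotype and of 0.07, 0.0012 and -0.51 by line number.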

How the data were processed

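RNA from 4 lines of primary mouse embryonic fibroblasts was measured on 1 Affymetrix array per line. As deposited, each of 45101 probe sets, 64 of them controls, has a linear intensity on every array. The sources used here do not state how the authors summarised probes, corrected background or scaled arrays. The trimmed means differed by 2.46 times between arrays, so the intensities were quantile normalized over the 45037 other probe sets. A pseudocount of 9, the rounded 25th percentile, was added before log2, which understates the change of dim probe sets. The upper 60% by mean over all 4 arrays, 27022 probe sets, were tested with limma (3.58.1, in R 4.3.3), whose eBayes step let the prior variance follow mean signal. The tests, two-sided, were run with Benjamini-Hochberg adjustment over all kept probe sets at 0.05, in 1 fit by genotype and 1 by line number. An exact permutation test of 2 against 2 cannot go below 0.333, so precision is limited by the 4 arrays.

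Symbols came from a platform annotation that gave 34945 probe sets 1 symbol. The brightest probe set was the same by deposited and by normalized mean for all 35 members. Members, lists and tests were chosen with earlier results of these data known. Values per array are given for the 10 members with the largest difference in each comparison, for the TIMPs, and for some others chosen after their values were seen, and the 4 other pathway genes with the smallest unadjusted p in each comparison are named. The genotype fit was tested on simulated arrays, with 200 changed probe sets in each of 10 runs. It called 0% of them at a log2 difference of 1, 64.2% at 2 and 96% at 3. A count of 0 members past the threshold therefore could not exclude differences of about 2-fold. At a log2 difference of 2, part of the changed probe sets were missed as well. The fit by line number was not simulated. Alternatives covered scaling, pseudocount, filter, variance model, probe set type, a block and each array left out.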

Additional observations from a re-analysis of the deposited data

How the results depend on the processing

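The number of members past the threshold by genotype was 0 under every alternative, including the replicate block. By line number it was 0 under all but 2. It was 1, Mmp2, with the genotype added to the fit, and 3, Mmp2, Timp2 and Adamts4, without RBP2-/- replicate 1, so with single arrays left out it ranged from 0 to 3. In that fit lines numbered 1 are WT line 1 alone, and a lone array is assumed to vary like the other arm, so the 3 calls rest on that array. The Mmp2 call with the genotype added rests on the WT lines of 1 probe set. Its line difference there was -1.73 between WT lines and 0.08 between RBP2-/- lines, and a dimmer Mmp2 probe set had -0.05. The number of all probe sets past the threshold, 1 in each comparison, moved more than that of members, and the cause was not tested. By genotype it was 2 with median-centred arrays, 0 without scaling, 0 without the filter and 0 without the mean-dependent variance, and from 0 to 41 with an array left out. By line number it was 17 with median-centred arrays, 630 without scaling, 11 with 4 times the pseudocount, 20 with the upper 40% kept, 0 without the mean-dependent variance, 6 without probe sets that can bind several transcripts and 580 with the genotype added. It ranged from 1 to 1253 with an array left out, the highest without RBP2-/- replicate 1. With the replicate number as a block 49 probe sets passed by genotype and no member did. The numbers were not taken as pairs, since the labels do not state what they share. Deviations of same-numbered arrays from their genotype means correlated at 0.11 across probe sets, as a description. The number of members with an unadjusted p under 0.05 by line number, 8 against 9.4% of all probe sets, was 3 against 7.6% without the mean-dependent variance, 5 against 9.81% with median-centred arrays and 9 against 26.8% without scaling. It was 7 to 9, against 8.05% to 11.5%, with the other pseudocounts, filters and probe set type and with the genotype added. The median over members by genotype ranged from -0.16 to -0.0036 with an array left out. The median over members by line number was -0.22 when taken over each gene's probe sets, and -0.26 to -0.075 with an array left out.

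The sign of some small member differences turned with scaling, relative to the shift of all probe sets and with the same value for median-centred and unscaled arrays. By genotype these were Mmp14 at 0.0089, Mmp19 at -0.070, Timp2 at 0.055, Adamts9 at -0.012, Plat at 0.029, Ctsl at 0.093 and Bmp1 at 0.045. By line number they were Mmp14 at 0.015, Timp3 at 0.028 and Adam12 at 0.030. With 4 times the pseudocount Mmp9 was 0.0016 by genotype. With single arrays left out, 27 of 33 members changed sign by genotype and 9 by line number, 16 and 5 of them without WT replicate 1. The shares of all probe sets that changed sign were not counted. Low signal limits Timp4, Plau, Mmp10 and Mmp13, which fell below the pseudocount on at least 1 array. By genotype, the lowest and highest values with an array left out were -0.063 and 0.16 for Adam10, -0.61 and 0.029 for Adam19, -0.13 and 0.28 for Adam9, -0.27 and 0.63 for Adamts1, -0.64 and 0.11 for Adamts12, -0.58 and 0.14 for Adamts15, -0.16 and 1.29 for Adamts4, -0.44 and 0.60 for Adamts5 and -0.70 and 0.10 for Adamts7. They were also -0.49 and 0.56 for Adamts9, -0.37 and 0.23 for Bmp1, -0.093 and 0.19 for Ctsb, -0.33 and 0.13 for Ctsk, -0.095 and 0.044 for Ctsl, -0.49 and 0.059 for Htra3, -0.081 and 0.52 for Mmp11, -0.45 and 0.54 for Mmp19 and -1.04 and 0.69 for Mmp2. They were also -0.14 and 0.35 for Mmp23, -0.25 and 0.78 for Mmp3, -0.65 and 0.54 for Mmp9, -0.47 and 0.31 for Plat, -0.11 and 1.32 for Plau, -0.14 and 0.26 for Timp1, -0.38 and 0.22 for Timp2, -0.29 and 0.0079 for Timp3 and -1.07 and 0.79 for Timp4. By line number, they were -0.21 and 0.042 for Adam12, -0.10 and 0.44 for Adam17, -0.20 and 1.29 for Adamts4, -0.73 and 0.085 for Adamts5, -0.50 and 0.051 for Htra3, -0.068 and 0.53 for Mmp11, -0.16 and 0.039 for Mmp14, -0.25 and 0.12 for Timp1 and -0.26 and 0.087 for Timp3.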

Other observations

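Timp1 lies on the X chromosome, and the lines differ in X and Y transcripts in a way that crosses both comparisons. Xist, the RNA of the inactive X chromosome, had a normalized signal of 49.9 and 1196 in RBP2-/- lines 1 and 2 and 1635 and 65.3 in WT lines 1 and 2. The Y-linked gene Eif2s3y had 141 and 3.28 in RBP2-/- lines 1 and 2 and 0.70 and 125 in WT lines 1 and 2. Each genotype and each line number therefore holds 1 line with high Xist and 1 with high Eif2s3y. A line difference that is unlike between genotypes cannot be told apart from this split. Timp1 read 3054 and 2333 in RBP2-/- lines 1 and 2 and 2365 and 2819 in WT lines 1 and 2, and Mmp10 read 29.9 and 8.55 in RBP2-/- lines 1 and 2 and 5.42 and 28.0 in WT lines 1 and 2. These values are given without a test. Other members also lay apart by this split. Among them, Adamts4, Mmp9, Mmp11, Ctsb and Adam17 were higher in the lines with high Eif2s3y, and Mmp2, Timp3, Adamts5 and Htra3 were lower. The shares of members and of all probe sets apart by this split were not counted.

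Tfpi2, an inhibitor of plasmin and other serine proteases that is deposited in the matrix, had a normalized signal of 392.7 and 56.2 in RBP2-/- lines 1 and 2, against 134.9 and 163.4 in WT lines 1 and 2. The RBP2-/- lines lay on either side of both WT lines.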
